A study of Mus musculus with 10 samples.

Results

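The genes described here are the semaphorins, which are secreted or membrane-bound guidance ligands, the plexins, which are their main receptors, and the neuropilins, which are co-receptors. They were chosen by name: every protein-coding gene of semaphorin classes 3 to 7, of the plexin A to D families, and Nrp1 and Nrp2. The files hold 31 such genes of 54532 counted genes, namely 20 semaphorins, 9 plexins and 2 neuropilins, and all 31 were among the 18329 genes with enough counts to be tested. The family was picked because Sema3f ranked high in the comparison of NR-treated with non-treated mice, at rank 9 by unadjusted p. Differences between the treatment groups are therefore given for these genes as descriptions. The number of them past a threshold stands beside the share of all genes only as background, and no p is given for a single one.

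Semaphorins were first known for steering growing axons, mostly by repulsion, and they also act on blood vessels, bone and immune cells. A semaphorin binds the outer part of a plexin, whose inner part switches off small GTPases of the Ras family and so changes the actin skeleton and the hold of the cell on its surroundings. Most secreted class 3 semaphorins bind plexin A or D receptors only together with a neuropilin, while classes 4 to 7 bind plexins directly. In the developing cochlea, semaphorin 3F and neuropilin 2 are known to guide auditory nerve fibers.

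RNA was taken from the cochlea of 10 mtKeima mice aged 12 months, a strain with a mitochondrial reporter protein (Keima) whose fluorescence depends on pH and which all mice of both groups carried. The 5 NR-treated mice (NR 1 to NR 5) drank water with 7 mg/ml (24 mM) nicotinamide riboside, a precursor of NAD+. Treatment began at 2 months of age and lasted 10 months. The controls were 5 non-treated mice (Vehicle 1 to Vehicle 5) on regular water. The comparison asks which transcripts differ with long-term NR. The labels give the sex as female and the methods as male, and all 10 libraries had Xist at 0.0882 to 0.405 CPM and the Y-linked Ddx3y at 64.5 to 85.0 CPM, which goes against the label. CPM is the count of a gene relative to the total counts of its library, scaled to a fixed total and adjusted between libraries by TMM.

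Total counts were 17060379 to 22931581 in NR-treated and 20004667 to 24419230 in non-treated mice, and the semaphorin, plexin and neuropilin genes took 0.217% to 0.245% and 0.216% to 0.238% of them. A whole cochlea mixes many cell types. Of the 17 lists of cell type markers examined, no list had a gene at 0 in every mouse, and those of hair cells, supporting cells and stria vascularis were all highest in Vehicle 3 and Vehicle 4 (mean log2 CPM of 4.05 and 4.33 for hair cells, against at most 3.57 in the other 8 mice). Markers of adipocytes had a mean log2 CPM of 3.92 ± 0.59 (SD, n = 5) in NR-treated against 1.88 ± 0.68 in non-treated mice, and those of osteoclasts 4.19 ± 0.65 against 3.16 ± 0.82. Those of spiral ganglion neurons, the afferent neurons of the cochlea, ranged from 7.32 to 7.88 in NR-treated and from 6.80 to 7.67 in non-treated mice. Skeletal muscle markers were at 6.28 in NR 3 and 6.21 in NR 5 and at -0.22 to 3.11 in the other 8 mice. In such tissue, fewer cells of a type and less RNA per cell cannot be told apart. The part of these shifts in the values below was not tested, and values without some of the mice are given as descriptions.

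Levels were compared between genes as RPKM, the CPM per kilobase of exon, over all 10 mice. Sema7a, whose product is held on the cell surface by a lipid anchor and binds plexin C1 and beta-1 integrins, stood far above the rest with 120.5 ± 16.3 RPKM (SD, n = 10; 104.3 to 148.6). Its mean was above that of the 9 plexins together (98.8 ± 10.9), in a family that summed to 390.3 ± 11.6 RPKM. Over the 10 mice the ranges overlapped, with the plexins together at 87.2 to 121.6 RPKM. The CPM of Sema7a was 343.9, 425.3, 374.7, 437.5 and 370.4 in NR 1 to NR 5. In Vehicle 1 to Vehicle 5 it was 353.3, 469.5, 364.2, 346.5 and 490.2. Both groups covered nearly the same range, and the log2 fold change of NR over Vehicle was -0.05 (SE 0.12). Plxnc1, its plexin receptor, reached 5.94 ± 1.61 RPKM, and the integrin subunit gene Itgb1 53.7 RPKM.

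**Figure D1:**
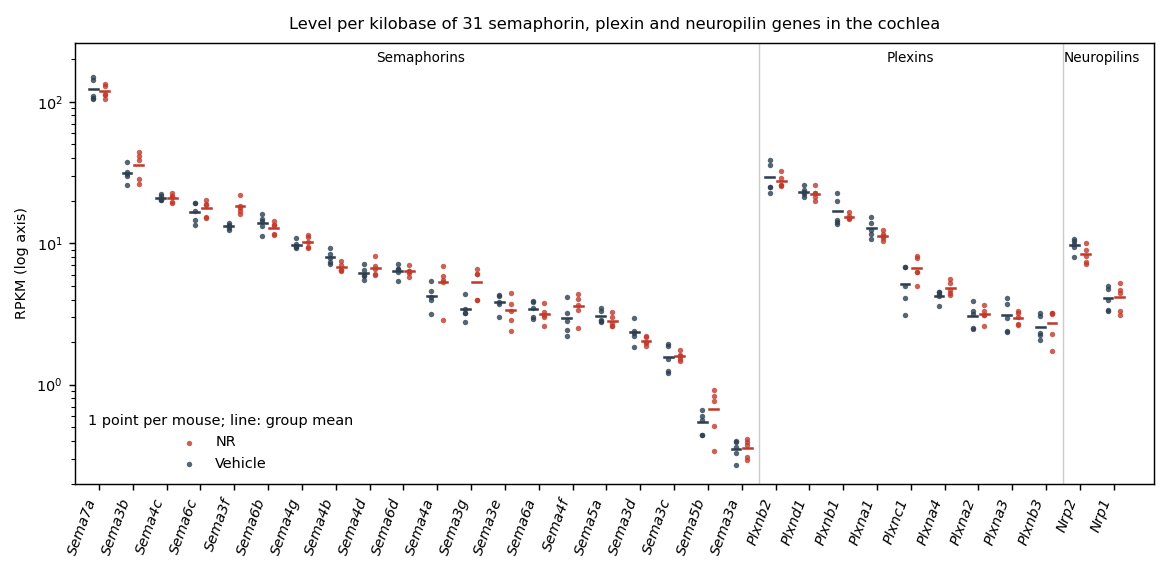
Level of the 31 genes in RPKM (vertical log axis) by gene, with 1 point per mouse and a line at the mean of the 5 mice of each group. Sema7a lies at 104.3 to 148.6 RPKM, above every other gene, while Sema5b and Sema3a lie below 1 RPKM in all 10 mice.

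Among the secreted class 3 ligands, whose summed level was 61.3 ± 9.03 RPKM, Sema3b was the highest with 33.5 ± 6.46, followed by Sema3f with 15.7 ± 3.07. Sema3g reached 4.37 ± 1.38, Sema3e 3.59 ± 0.68, Sema3d 2.20 ± 0.33 and Sema3c 1.58 ± 0.24 RPKM. Sema3a, the ligand first described as a collapsing factor of axon tips, was the lowest of the 31 genes with 0.354 ± 0.050 RPKM. Sema3b and Sema3f, the highest of the class, lie 72.3 kb apart on chromosome 9, and the genes of the 4 lower ligands Sema3a, Sema3c, Sema3d and Sema3e all lie on chromosome 5.

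The membrane-bound classes differed in the same way among their members. Class 4, whose members bind mainly plexin B receptors, summed to 52.8 ± 3.30 RPKM. Sema4c led it with 20.9 ± 1.13, and Sema4f had the least with 3.27 ± 0.77. Sema4c was also the steadiest of the 31 genes. Its CPM was 99.6, 88.1, 97.4, 90.4 and 103.3 in NR 1 to NR 5 and 92.5, 93.6, 99.1, 93.7 and 102.9 in Vehicle 1 to Vehicle 5, so that the highest mouse was 1.17 times the lowest. An exon of another gene on the opposite strand overlaps 7.27% of its exon bases, and the counts take no account of strand. Class 6, the ligands of plexin A receptors, summed to 40.2 ± 2.14 RPKM, with Sema6c at 17.2 ± 2.40, Sema6b at 13.4 ± 1.58, Sema6d at 6.35 ± 0.51 and Sema6a at 3.30 ± 0.45. Class 5, whose members carry thrombospondin repeats, summed to 3.56 ± 0.41 RPKM, nearly all of it Sema5a (2.95 ± 0.31).

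Of the receptors, Plxnb2 (28.5 ± 5.23 RPKM) and Plxnd1 (22.8 ± 1.92) had the highest levels, then Plxnb1 (16.2 ± 2.82) and Plxna1 (12.0 ± 1.58). Plxnb2 and Plxnb1 are receptors of class 4 semaphorins, and plexin D1 is the receptor that semaphorin 3E binds without a neuropilin. The other plexins, Plxnc1, Plxna4, Plxna2, Plxna3 and Plxnb3, lay between 2.65 and 5.94 RPKM. Nrp2, the co-receptor preferred by semaphorin 3F, had 9.01 ± 1.28 RPKM, and Nrp1, which is preferred by semaphorin 3A and also binds VEGF, 4.11 ± 0.80. The ligand and co-receptor that pair in the ear, Sema3f and Nrp2, were both expressed, while Sema3a was at a low level beside Nrp1.

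Neighbors in this order were mostly not separated. Of the 30 pairs of neighboring genes, 2 had ranges over the 10 mice that did not overlap, Sema7a over Sema3b and Sema3c over Sema5b, and 5 kept their order in every mouse. The RPKM of Sema4g (10.0 ± 0.83) depends on its exon length, which is 4872 bases in the deposited files and 8661 bases in the GENCODE M21 annotation. The other 30 genes have the same length in both.

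RefSeq promoter sequences of the same build (GRCm38.p6) were matched for 26 of the 31 genes, in 37 windows of 250 bases that end just before a start site. Plxna1, Plxna4, Sema3b, Sema3f and Sema6a were not among them. The promoters of Sema7a, the gene with the highest level, and of Sema3g and Sema4b, the genes with the largest difference in each direction between the groups, are shown, with the GC boxes (GGGCGG or its reverse complement CCGCCC) in capitals. They lie at chr9:57939862-57940111, chr14:31217623-31217872 and chr7:80186620-80186869, all on the plus strand, and Sema4b has a further window downstream that is not shown.
Sema7a: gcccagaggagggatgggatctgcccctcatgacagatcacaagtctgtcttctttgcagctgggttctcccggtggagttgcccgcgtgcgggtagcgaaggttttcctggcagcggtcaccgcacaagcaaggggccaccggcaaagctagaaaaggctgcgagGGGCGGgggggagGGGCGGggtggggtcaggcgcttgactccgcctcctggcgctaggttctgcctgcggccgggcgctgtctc
Sema3g: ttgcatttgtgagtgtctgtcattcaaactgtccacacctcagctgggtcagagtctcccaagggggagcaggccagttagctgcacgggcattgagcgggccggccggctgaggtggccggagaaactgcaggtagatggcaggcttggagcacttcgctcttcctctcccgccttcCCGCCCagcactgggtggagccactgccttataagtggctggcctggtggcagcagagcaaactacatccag
Sema4b: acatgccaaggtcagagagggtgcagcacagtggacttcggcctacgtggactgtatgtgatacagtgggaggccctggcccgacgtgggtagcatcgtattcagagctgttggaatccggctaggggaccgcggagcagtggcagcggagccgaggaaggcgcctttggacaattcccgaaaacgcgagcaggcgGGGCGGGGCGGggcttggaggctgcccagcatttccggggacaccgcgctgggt
The Sema7a window holds 2 GC boxes, a motif bound by Sp1-type factors, and the Sema3g and Sema4b windows 1 and 2. The copies in the Sema4b window share an end base. Over the 26 genes, 27 of 37 windows (73.0%) held a GC box on either strand. The share was 32.7% of all 32851 RefSeq windows of this length and 52.8% of the 16506 windows of tested genes. A TATA box (TATAAA, either strand) was in 0 of the 37 windows, against 12.4% and 7.14%. A CCAAT box (CCAAT, either strand) was in 7 (18.9%), against 33.8% and 34.5%, and the E-box CACGTG in 2 (5.41%), against 6.02% and 7.74%. The median GC content was 64.0%, against 52.4% and 58.8%. Windows of 1 gene can overlap, and these shares are descriptions.

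Between NR-treated and non-treated mice, the summed level of the family was 391.5 ± 11.2 against 389.1 ± 13.1 RPKM (SD, n = 5). The median log2 fold change was 0.02 over the 20 semaphorins, with 11 higher and 9 lower in NR-treated mice. It was -0.04 over the 9 plexins, with 4 higher and 5 lower, and -0.01 over all tested genes. At an unadjusted p of 0.05 (edgeR quasi-likelihood test), 2 of the 31 genes were higher, Sema3f and Sema3g, and 1 was lower, Sema4b. Over all 18329 genes the same threshold takes 9.71%, with 4.83% higher and 4.88% lower. Since the comparison itself chose the family, nothing is read from these shares. No gene of the 18329 passed an adjusted p of 0.05 in edgeR (0%), 1780 passed the unadjusted p, and DESeq2 put 102 genes past its adjusted threshold (0.308%), of which 1, Sema3f, is in the family. At its unadjusted p of 0.05, DESeq2 took 6.58% of the genes it tested and the same 3 genes of the family.

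**Figure D2:**
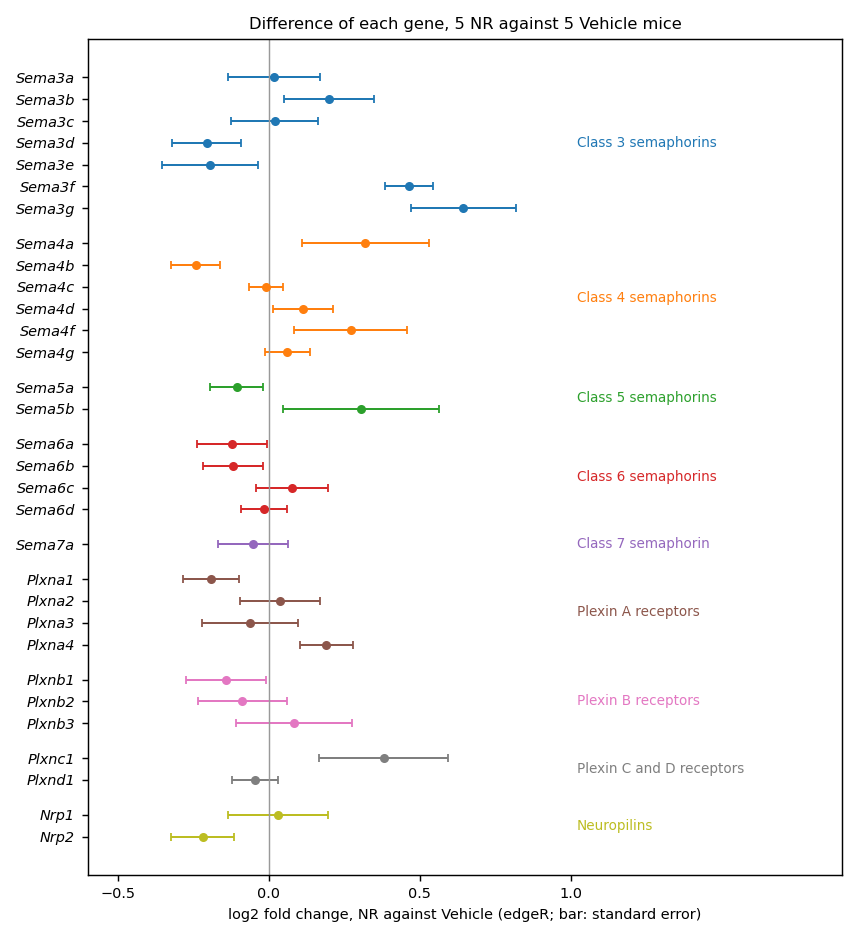
Log2 fold change of NR-treated over non-treated mice for each of the 31 genes by class (horizontal axis, edgeR), with a bar of 1 standard error on each side. Most genes lie within 0.3 of 0, and Sema3g (0.64) and Sema3f (0.46) lie farthest to the right.

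Sema3f (ENSMUSG00000034684; mm10 chromosome 9, 107681500 to 107710475, minus strand) codes for the secreted ligand that signals through neuropilin 2. Its CPM was 114.0, 83.4, 92.0, 95.4 and 87.6 in NR 1 to NR 5, and 63.9, 71.9, 66.9, 70.4 and 69.3 in Vehicle 1 to Vehicle 5. Every NR-treated mouse was above every non-treated mouse. The group means of 94.5 ± 11.8 and 68.5 ± 3.13 CPM (SD, n = 5) differed 1.38-fold, or by 0.46 on the log2 scale (SE 0.079). It was the only gene of the 31 whose groups did not overlap. Over all tested genes 1.65% had such groups, but as Sema3f is the gene for which the family was picked, nothing is read from this. Without NR 1, its highest mouse, the log2 fold change was 0.40, and without Vehicle 3 and Vehicle 4, in which hair cell and stria markers were highest, it was 0.47. No exon of another counted gene overlaps it.

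Sema3g (ENSMUSG00000021904; chromosome 14, 31217860 to 31230352, plus strand), a secreted ligand known from blood vessels and fat tissue, had the largest difference of the family. Its CPM was 27.6, 17.9, 29.9, 18.1 and 27.6 in NR 1 to NR 5, and 19.9, 15.7, 12.7, 14.6 and 14.7 in Vehicle 1 to Vehicle 5. NR 1, NR 3 and NR 5 were above all non-treated mice, and NR 2 and NR 4 lay below Vehicle 1. The means of 24.2 ± 5.77 and 15.5 ± 2.69 CPM gave a log2 fold change of 0.64 (SE 0.17) or 1.56-fold. Adipocyte markers, which were also higher in NR-treated mice, had a mean log2 CPM of 3.84, 4.83, 4.07, 3.33 and 3.52 in NR 1 to NR 5. In Vehicle 1 to Vehicle 5 they were at 2.76, 2.32, 1.32, 1.13 and 1.84. They were highest in NR 2, where Sema3g was lowest among the treated. Among the non-treated, both they and Sema3g were highest in Vehicle 1. The endothelial markers had a mean log2 CPM of 5.26 ± 0.08 against 5.13 ± 0.15. How far adipocyte or endothelial content enters the difference of Sema3g was not tested.

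In Sema3g, Sema3b, Sema4f and Sema5b, the same 4 mice had the highest values, namely NR 1, NR 3, NR 5 and Vehicle 1, against 3.22% of all tested genes. Sema3b (ENSMUSG00000057969; chromosome 9, 107597674 to 107609229, minus strand) had 186.5, 126.2, 209.7, 135.9 and 196.4 CPM in NR 1 to NR 5, and 180.6, 147.5, 141.9, 123.1 and 151.3 in Vehicle 1 to Vehicle 5. The groups overlapped, and its log2 fold change was 0.20 (SE 0.15). It was 0.13 without NR 3, 0.10 without Vehicle 3 and Vehicle 4, and 0.02 without NR 3 and NR 5. These were also the 4 mice with the highest mean log2 CPM of spiral ganglion markers, 7.67 to 7.88 against 6.80 to 7.54 in the other 6, and 3 of the 11 marker genes showed the pattern singly. Of these 4 mice, 3 were NR-treated. Other marker lists were highest in some of the same mice. Schwann cell markers were highest in NR 1, NR 3 and NR 5 (8.22 to 8.33). Osteoclast markers were highest in NR 1, NR 5 and Vehicle 1 (4.28 to 4.77). Skeletal muscle markers were highest in NR 3, NR 5 and Vehicle 1 (3.11 to 6.28). Among the other 6 mice, Sema3g was at 17.9 and 18.1 CPM in NR 2 and NR 4 and at 12.7 to 15.7 in Vehicle 2 to Vehicle 5. Sema3f was at 83.4 and 95.4 CPM there against 66.9 to 71.9. This pattern and the division into 4 and 6 mice were chosen after the values were seen. Sema3g itself is 1 of the genes that define the division, so nothing is read from the values within the 6 mice. How far spiral ganglion content or that of other cell types enters these differences was not tested.

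**Figure D3:**
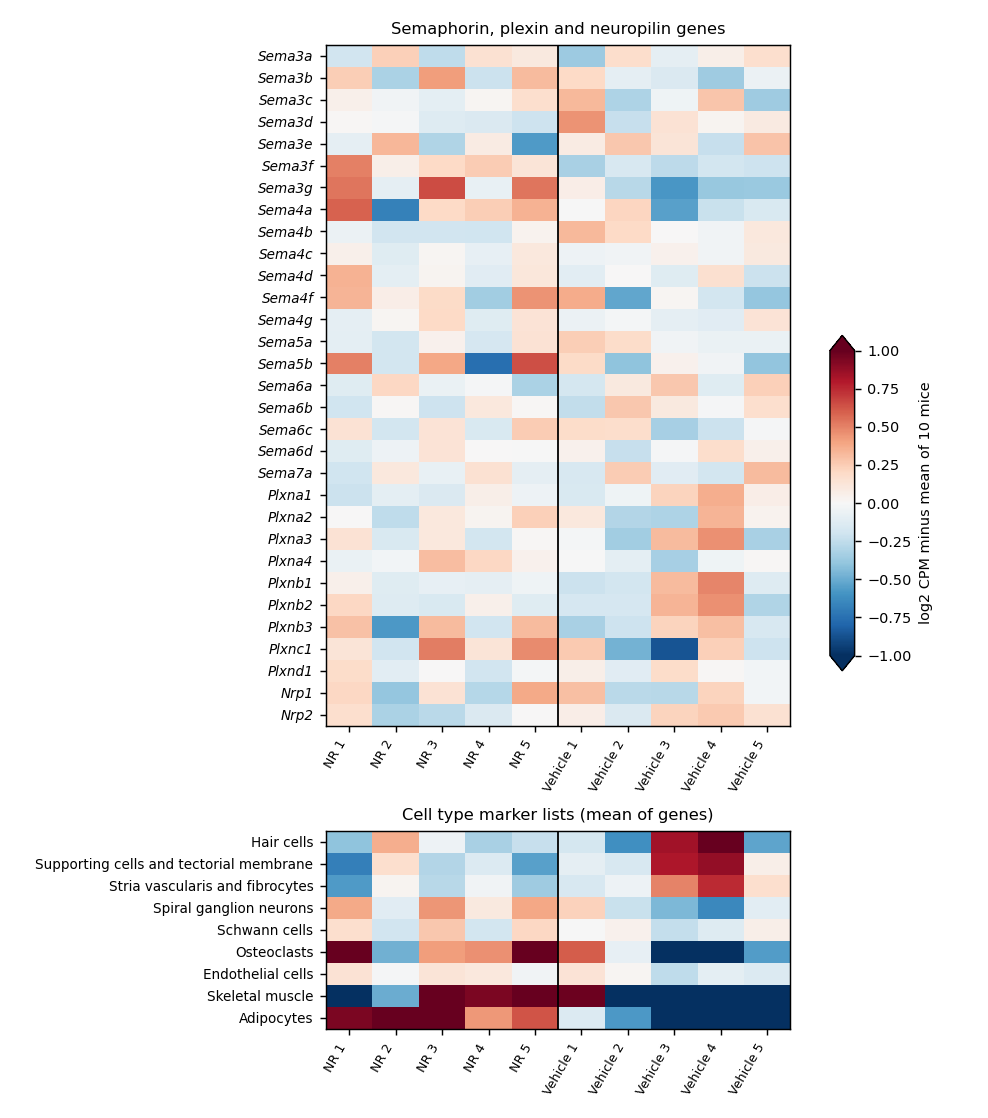
Log2 CPM of each gene in each of the 10 mice as the difference from the mean of all mice (color, limited to 1 on each side), with the mean of 9 marker lists below on the same scale; a line separates the groups. Sema3f is higher in all NR-treated mice, while Plxnb1, Plxnb2 and Plxna3 are highest in Vehicle 3 and Vehicle 4, as are the hair cell, supporting cell and stria markers.

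The other class 3 ligands showed smaller differences. Sema3d had a log2 fold change of -0.21 (SE 0.11), Sema3e -0.19 (SE 0.16), Sema3c 0.02 (SE 0.14) and Sema3a 0.02 (SE 0.15). The summed level of the class was 66.6 ± 9.31 RPKM in NR-treated and 55.9 ± 4.93 in non-treated mice.

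Sema4b (ENSMUSG00000030539; chromosome 7, 80186841 to 80226527, plus strand), a transmembrane ligand, differed the other way. Its CPM was 39.9, 36.3, 36.3, 36.1 and 42.5 in NR 1 to NR 5, and 52.0, 47.6, 41.5, 40.4 and 44.6 in Vehicle 1 to Vehicle 5. Of the NR-treated mice, 4 were below all non-treated mice, and NR 5 lay within their range. The means of 38.2 ± 2.87 and 45.2 ± 4.74 CPM gave a log2 fold change of -0.24 (SE 0.081), which was -0.18 without Vehicle 1, its highest mouse. The other class 4 genes ranged from -0.01 (SE 0.055) for Sema4c to 0.32 (SE 0.21) for Sema4a. Sema4a spread widely within the treated group, from 15.6 CPM in NR 2 to 37.6 in NR 1.

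Classes 5 and 6 differed little relative to their errors. Sema5b, at 2.40 to 6.48 CPM, had a log2 fold change of 0.31 (SE 0.26), and Sema5a -0.11 (SE 0.087). In class 6, the values were -0.12 (SE 0.12) for Sema6a, -0.12 (SE 0.099) for Sema6b, 0.08 (SE 0.12) for Sema6c and -0.02 (SE 0.075) for Sema6d. Sema6c, the highest of the class, had 111.8, 89.0, 110.8, 90.6 and 120.6 CPM in NR 1 to NR 5, and 114.3, 113.9, 79.9, 86.8 and 100.3 in Vehicle 1 to Vehicle 5. It was lowest in Vehicle 3 and Vehicle 4, and with both left out its log2 fold change was -0.06.

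In several plexins, but not in all, Vehicle 3 and Vehicle 4 had the highest values. Plxnb2 (ENSMUSG00000036606; chromosome 15, 89155549 to 89180788, minus strand) had 250.2, 198.3, 194.9, 224.2 and 199.0 CPM in NR 1 to NR 5, and 192.9, 193.1, 273.9, 297.0 and 176.1 in Vehicle 1 to Vehicle 5. Plxnb1 (ENSMUSG00000053646; chromosome 9, 109095389 to 109119917, plus strand) had 159.0, 141.2, 145.1, 144.5 and 149.0 CPM against 132.0, 135.3, 191.3, 215.9 and 140.6. In both genes Vehicle 3 and Vehicle 4 were the highest of the 10 mice, and the other 3 non-treated mice were below every NR-treated mouse. The log2 fold changes were -0.09 (SE 0.15) for Plxnb2 and -0.14 (SE 0.13) for Plxnb1, and with these mice left out, which was chosen after the data were seen, they turned to 0.19 and 0.13. The median over the 9 plexins turned from -0.04 to 0.14. Vehicle 3 and Vehicle 4 were the highest mice in 5 genes of the family (Plxnb1, Plxnb2, Plxna1, Plxna3 and Nrp2), against 11.5% of all tested genes. They were also the highest in the markers of hair cells, supporting cells and stria vascularis. In Plxnc1, Plxna2 and Plxna4, by contrast, Vehicle 3 was the lowest of the 10 mice, with 26.1, 42.6 and 50.5 CPM. Vehicle 4 was not low in them, with 56.4, 67.0 and 61.8 CPM, and was the highest mouse in Plxna2.

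Plxna4, which works with Plxna2 as a receptor of class 6 semaphorins, had 60.9 to 78.8 CPM in NR-treated and 50.5 to 64.3 in non-treated mice, a log2 fold change of 0.19 (SE 0.088). Plxna1 lay the other way with -0.19 (SE 0.094), and Plxna2 and Plxna3 at 0.04 (SE 0.13) and -0.06 (SE 0.16). An exon of a gene on the opposite strand overlaps 10.7% of the exon bases of Plxna1. Plxnc1, the receptor of Sema7a, which is also found on immune cells, had 0.38 (SE 0.21) and the widest relative range of the plexins, from 26.1 CPM in Vehicle 3 to 67.9 in NR 3. Plxnd1, known from blood vessels, had 188.8, 154.5, 166.5, 145.6 and 164.0 CPM in NR 1 to NR 5, and 173.1, 153.8, 188.0, 167.0 and 163.2 in Vehicle 1 to Vehicle 5. These ranges nearly coincided, with a log2 fold change of -0.04 (SE 0.076), and Plxnb3 had 0.08 (SE 0.19).

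Nrp2 (ENSMUSG00000025969; chromosome 1, 62703285 to 62818695, plus strand), the co-receptor of semaphorin 3F, had 118.8, 84.8, 87.8, 95.5 and 106.0 CPM in NR 1 to NR 5, and 110.7, 95.4, 123.4, 126.9 and 117.2 in Vehicle 1 to Vehicle 5. The groups overlapped, with NR 2 and NR 3 below all non-treated mice. The means were 98.6 ± 14.0 and 114.7 ± 12.5 CPM, a log2 fold change of -0.22 (SE 0.10). Without Vehicle 3 and Vehicle 4, its highest mice, it was -0.12. Nrp1 (ENSMUSG00000025810; chromosome 8, 128358604 to 128503363, plus strand) had 45.6, 30.2, 43.6, 32.4 and 51.6 CPM against 48.7, 32.9, 32.5, 46.1 and 38.7. Both groups of Nrp1 covered the same range, with a log2 fold change of 0.03 (SE 0.17).

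**Figure D4:**
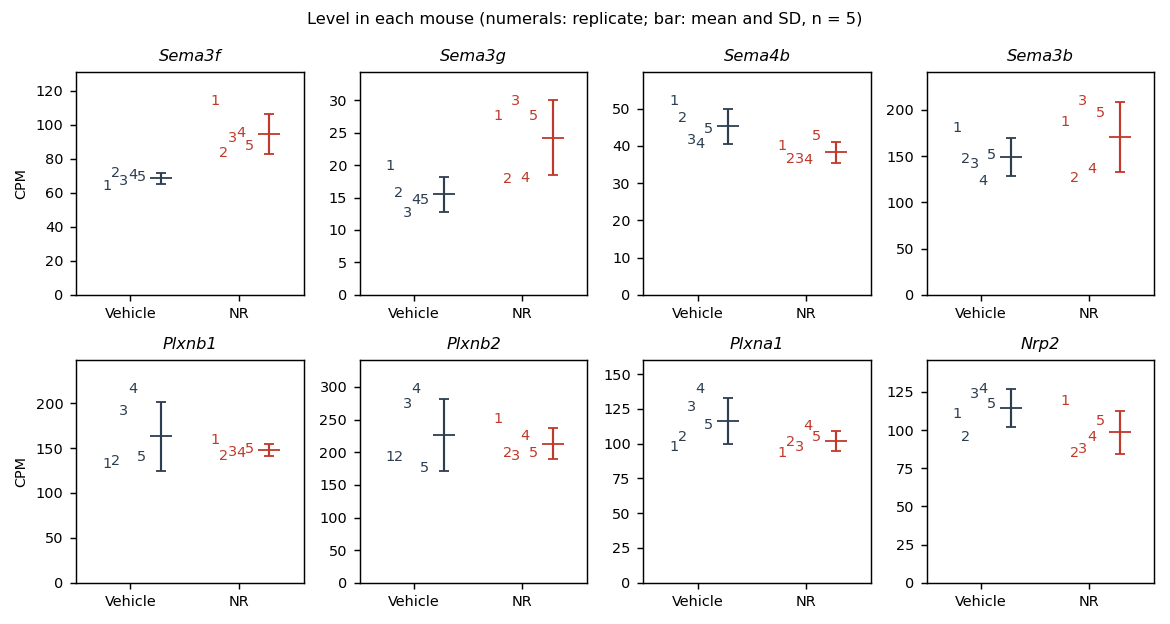
CPM in each mouse (vertical axes from 0) for 8 genes, with the replicate number as the mark and the mean and SD of 5 mice beside it. Sema3f separates the groups, Sema3b and Sema3g are high in NR 1, NR 3 and NR 5, and Plxnb1 and Plxnb2 are high in Vehicle 3 and Vehicle 4.

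The spread between mice differed among the genes of the family, from 1.17 times between the lowest and the highest mouse in Sema4c to 2.70 times in Sema5b. The highest mouse was a median of 1.57 times the lowest over the 31 genes, against 1.39 times over the 13409 tested genes with a mean CPM in the same range. The median biological coefficient of variation was 0.148, against 0.121.

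Genes that work with semaphorins were listed in 7 groups. Of these 56 genes 55 were tested, and Timd2 had too few counts. At an unadjusted p of 0.05, 4 were higher and 6 lower in NR-treated mice (18.2%, against 9.71% of all genes), and none passed the adjusted p, the smallest being 0.408 (edgeR). The median log2 fold change was 0.04. All 55 had groups that overlapped. Leaving out Vehicle 3 and Vehicle 4 gave 6 genes (10.9%, against 9.69% of all genes). Leaving out NR 3 and NR 5, where muscle markers were highest, gave 3 (5.45%, against 4.5% of all genes). Met and Cdk5 passed in both cases.

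Among the 13 co-receptors and other receptors, Met, the HGF receptor that couples to plexin B, had the largest difference. Its CPM was 32.1, 47.4, 37.9, 55.1 and 35.7 in NR 1 to NR 5, and 47.7, 65.7, 71.3, 108.9 and 75.4 in Vehicle 1 to Vehicle 5. Of the NR-treated mice, 4 were below all non-treated mice, and the log2 fold change was -0.83 (SE 0.21; edgeR adjusted p = 0.408). L1cam, an axonal adhesion molecule that joins neuropilin 1 in the semaphorin 3A receptor, had 0.47 (SE 0.14; edgeR adjusted p = 0.423), and was highest in NR 1, NR 3 and NR 5 (125.9 to 141.9 CPM) and then in Vehicle 1 (112.3 CPM), the mice with the highest spiral ganglion markers. Nrcam, its relative that joins neuropilin 2, had -0.22 (SE 0.094; edgeR adjusted p = 0.498). Tyrobp, the adaptor of microglia and osteoclasts that plexin A1 uses, had the highest level of the list (67.4 RPKM) and a log2 fold change of 0.36 (SE 0.25).

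Of the 7 proteases that cut or activate semaphorins, 2 were lower, Pcsk5 (-0.39, SE 0.14; edgeR adjusted p = 0.452) and Pcsk6 (-0.53, SE 0.22; edgeR adjusted p = 0.476). Both were highest in Vehicle 3 and Vehicle 4, with 86.6 and 122.1 CPM of Pcsk6 against 44.8 to 70.8 in the other 8 mice, and neither passed without these mice. Furin, the main convertase of class 3 semaphorins, was at 407.3 CPM in Vehicle 2 and at 129.4 to 163.3 in the other 9 mice. It was chosen after its values were seen. Adam10 had the highest level of the list (27.2 RPKM) and a log2 fold change of -0.05 (SE 0.091).

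Inside the cell, the 5 collapsin response mediator proteins, which carry the class 3 signal to microtubules, all had a positive log2 fold change (median 0.23), and 1 of them, Dpysl3, passed the unadjusted p (0.35, SE 0.13; edgeR adjusted p = 0.476). It was highest in the same 4 mice as L1cam, at 127.1 to 151.1 CPM. Dpysl2, the most abundant, had 0.09 (SE 0.078). Of the 10 kinases, Cdk5, a neuronal kinase that phosphorylates these proteins, was higher (0.21, SE 0.062; edgeR adjusted p = 0.423), with 4 NR-treated mice above all non-treated mice. Rock1 and Rock2, kinases of the actin skeleton, were lower by small amounts (-0.16, SE 0.070, and -0.11, SE 0.042). Mical1, an enzyme that oxidizes actin downstream of plexin A, was higher (0.20, SE 0.088) and the only one of the 5 MICAL and FARP genes to pass the unadjusted p, while 3 of the 5 had a positive log2 fold change. Among the 10 GTPases and regulators and the 5 VEGF ligands of neuropilins, 0 passed the unadjusted p, and Cfl1 and Vegfb, the most abundant, had 0.10 (SE 0.070) and -0.08 (SE 0.046).

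**Figure D5:**
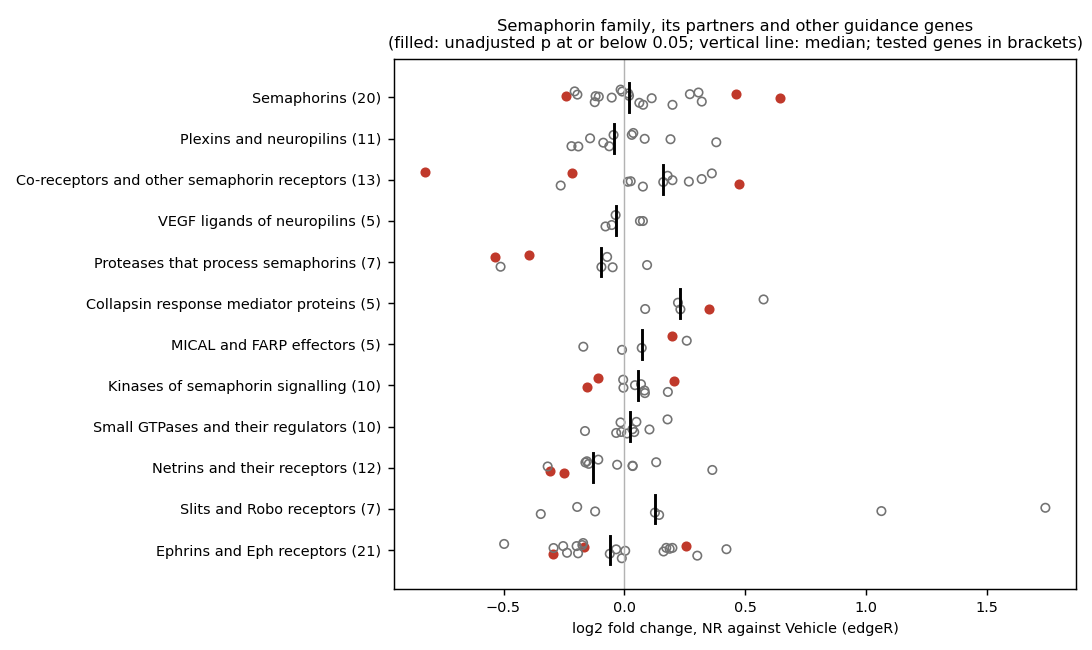
Log2 fold change of NR-treated over non-treated mice (horizontal axis, edgeR) for the semaphorin family and 10 lists of related genes, with 1 circle per tested gene, filled where the unadjusted p is at or below 0.05, and a line at each median. The medians of the lists lie between -0.13 and 0.23, and the points farthest to the right are Slit1 and Robo2.

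Other guidance families were set beside the semaphorins: 40 of 43 listed genes were tested, 1 was higher and 4 were lower at an unadjusted p of 0.05 (12.5%, against 9.71%), and 0 passed the adjusted p (smallest 0.434, edgeR). The median log2 fold change was -0.08, against 0.02 for the semaphorins. Of the 12 netrin and netrin receptor genes, 2 were lower: Ntn4, a netrin of basement membranes, with -0.31 (SE 0.097; edgeR adjusted p = 0.434), and Rgma, a ligand of neogenin and the most abundant of them, with -0.25 (SE 0.10; edgeR adjusted p = 0.483). Of the 21 ephrins and Eph receptors, Ephb6 was higher with 0.25 (SE 0.10; edgeR adjusted p = 0.476), and Epha4 (-0.30, SE 0.12) and Ephb4 (-0.17, SE 0.076) were lower. With Vehicle 3 and Vehicle 4 left out, none of these 5 passed.

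Of the 7 Slit and Robo genes, 0 passed, although Slit1 and Robo2 had the largest log2 fold changes of any list (1.74, SE 1.19, and 1.06, SE 0.59). Slit1, a repulsive ligand of neurons, was at 17.9, 20.8, 28.2 and 19.0 CPM in NR 1, NR 3, NR 5 and Vehicle 1, and at 0.358 to 3.89 CPM in the other 6 mice. Its receptor gene Robo2 was at 28.7, 28.1, 35.1 and 30.2 CPM in those 4 mice and at 4.69 to 12.5 in the other 6. These are the mice in which Sema3b, Sema3g, Sema4f and Sema5b were highest. Both genes were chosen after their values were seen.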

How the data were processed

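Poly(A) libraries of 10 cochleae were sequenced by Novogene. Per the submitters' processing notes, reads were filtered with fastp, aligned to mm10 with STAR 2.6.1d and counted with featureCounts 1.5.0. The deposited values are raw counts per gene, without normalization and without regard to strand, 1 file per mouse; DESeq2 1.26.0 was the authors' test. From these counts, genes were filtered with filterByExpr, scaled by TMM and tested with the quasi-likelihood test of edgeR 4.0.16 in R 4.3.3 (5 against 5, no covariate), with Benjamini-Hochberg adjustment over 18329 genes. Scripts were tested on simulated data. Log2 CPM used a prior count of 2. RPKM used the deposited exon length. The family, its lists and the rule for named genes were chosen with earlier results of these data known. Named with every mouse were Sema3f, genes at an unadjusted p of 0.05, the 4 highest semaphorins, the 3 highest plexins and both neuropilins. Partner and guidance genes were named at that p or as the most abundant of a list. Outside this rule, Furin, Slit1 and Robo2 were named after their values were seen, and Itgb1 as a receptor gene of Sema7a. Alternatives were DESeq2 1.42.0, its size factors, other filters, a robust fit, the replicate number as a block, and leaving out mice. Whether same-group mice shared a litter or cage is not given in the sources used here, so errors refer to these mice only. The SD is the spread between mice. The SE of a log2 fold change is its absolute value divided by the square root of the F statistic of edgeR. That statistic uses a variation estimate shared in part across genes.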

Additional observations from a re-analysis of the deposited data

Results flagged for a closer look

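Of 110 groups of 5 mice examined (55 genes in each treatment group), 3 held 1 mouse far from the others by Dixon's criterion, which chance meets in about 1 of 20 groups. Slit1 was at 19.0 CPM in Vehicle 1 and at 0.449 to 0.836 in the other non-treated mice. Robo2 was at 30.2 CPM in Vehicle 1 and at 4.69 to 6.69 in the others. Furin was at 407 CPM in Vehicle 2 and at 129.4 to 163.3 in the others. These 3 genes were chosen after their values were seen, so the chance rate does not hold for them. No semaphorin, plexin or neuropilin gene met the criterion.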

How the results depend on the processing

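Sema3f, Sema3g and Sema4b kept their direction and an unadjusted p of 0.05 in all 18 alternatives, including DESeq2. These use the same mice in which Sema3f led to the choice of the family, so they are no independent support. Their log2 fold changes lay between 0.40 and 0.52, 0.46 and 0.75, and -0.33 and -0.18. With 1 mouse left out in turn, the number of semaphorin, plexin and neuropilin genes at that p ranged from 3 to 7. Without Vehicle 1 it was 7 (22.6%, against 12.3% of all genes). Partner genes ranged from 4 without NR 5 (7.27%, against 7.66%) to 15 without NR 2 (27.3%, against 13.1%). Other guidance genes ranged from 2 to 10, with 10 without Vehicle 1 (25%, against 12.3%). Over all genes the range was from 1153 (without NR 3) to 2440 (without NR 2). Without NR 3 and NR 5, the counts were 843 of all genes (4.5%), 3 partner genes (5.45%) and 1 guidance gene (Ntn4, 2.5%). Without Vehicle 3 and Vehicle 4, they were 1809 of all genes (9.69%), 6 partner genes (10.9%) and 2 guidance genes (4.88%). The family had 3 genes (9.68%) at that p in the first case and 4 (12.9%) in the second. The cause of these changes was not tested, and the fits without some mice also rest on a smaller number of mice. No clear pairing of the mice by replicate number was seen. The deviations of same-numbered mice correlated with r of -0.22 to 0.17, over 0.1 in 2 of 5 pairs, and 1 NR-treated mouse correlated best with its own number. With 5 pairs, such values cannot exclude a shared factor. With the number as a block, 5 genes of the family passed (16.1%, with Nrp2 and Plxna1 added). So did 9 partner genes (16.4%), 6 guidance genes (15%) and 1655 of all genes (9.03%). Several smaller log2 fold changes turned with the mice used, among them Plxnb2 (-0.17 to 0.19) and Plxnb1 (-0.20 to 0.13). At 17060379 to 24419230 counts per mouse, Sema5b and Sema3a (2.40 to 6.48 CPM) rest on the fewest reads.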
